A study of Mus musculus with 10 samples.

Results

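The Igkv genes, the variable (V) segments of the mouse immunoglobulin kappa light chain locus, were taken as every gene whose symbol starts with Igkv. This gave 138 of the 33585 genes in the expression tables, of which 96 had a mean of at least 1 FPKM (fragments mapped to a gene, scaled by its transcript length and by all mapped fragments of the library) over the libraries and were among the 13334 genes tested. Of the other 42, 35 were V pseudogenes and 7 were V genes, and none of the 138 was at 0 in every library. In a symbol such as Igkv5-39, the first number names the family and the second the place along the locus, and the members carried 20 family numbers.

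RNA-seq was performed on tumor-draining lymph nodes (TDLNs) taken on day 15 from wild-type female BALB/c mice bearing 4T1 tumors, a mammary carcinoma line of the same strain. In both groups the primary tumor had been treated by microwave ablation (MWA), a local heat treatment. The 5 libraries labelled MWA came from mice that, according to the methods of the study, were injected with PBS after ablation, and the 5 libraries labelled MWA+2DG from mice injected with 2-deoxy-D-glucose (2DG), a glucose analogue that blocks glycolysis. No library of untreated nodes, of 2DG alone or of nodes without a tumor was part of the comparison, so a difference is one of added 2DG in ablated, tumor-bearing mice. The comparison asks whether 2DG after ablation was accompanied by a change in the amount or in the choice of kappa V segments.

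A B cell that makes a kappa chain joins 1 of its V segments to 1 of a few J segments, and the joined exon is spliced to the only kappa constant region, Igkc. Every mature kappa transcript therefore holds a V segment, a J segment and Igkc, and the V segment carries most of the antigen contact of the chain. Plasma cells hold far more immunoglobulin mRNA than resting B cells, and cells of a clone share the same V segment, so that in a whole node the Igkv signal is a sum over clones of unequal size and output. In bulk RNA, fewer cells of a type and less RNA per cell cannot be told apart.

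Of the Igkv genes, 6 carry most of what follows. Igkv5-39, Igkv3-1 and Igkv16-104 were the 3 members whose MWA+2DG libraries all lay below all MWA libraries, and Igkv4-59, Igkv12-46 and Igkv19-93 were the segments that dominated a single library. Shown for each are the last 99 bases of the spliced GENCODE M21 transcript, 5′ to 3′ (build GRCm38, all on chromosome 6). The capitals mark the bases after the codon of the last cysteine, the germline start of the third complementarity-determining region (CDR3), which is completed by the J segment. Igkv5-39 lies at chr6:69900424-69900977, Igkv4-59 at chr6:69438218-69438757, Igkv12-46 at chr6:69764523-69765022 and Igkv19-93 at chr6:68736297-68736780, all on the minus strand, while Igkv3-1 at chr6:70703578-70704177 and Igkv16-104 at chr6:68425575-68426072 lie on the plus strand.
Igkv5-39: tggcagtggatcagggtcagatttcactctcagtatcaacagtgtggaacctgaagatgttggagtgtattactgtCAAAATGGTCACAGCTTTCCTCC
Igkv3-1: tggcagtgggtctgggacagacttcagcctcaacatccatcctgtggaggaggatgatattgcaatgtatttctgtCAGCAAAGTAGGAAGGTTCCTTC
Igkv16-104: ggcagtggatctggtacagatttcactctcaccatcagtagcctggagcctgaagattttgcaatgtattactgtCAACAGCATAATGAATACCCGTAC
Igkv4-59: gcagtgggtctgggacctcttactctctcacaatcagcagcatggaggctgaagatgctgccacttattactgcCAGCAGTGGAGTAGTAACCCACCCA
Igkv12-46: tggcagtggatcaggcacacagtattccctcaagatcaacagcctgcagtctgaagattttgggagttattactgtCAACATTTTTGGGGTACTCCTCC
Igkv19-93: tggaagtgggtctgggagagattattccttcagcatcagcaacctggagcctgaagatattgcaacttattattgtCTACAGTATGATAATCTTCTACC

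The annotation is that of C57BL/6J mice, and the sequences are those of the reference, not reads of these BALB/c animals. V segments of a family are close copies of each other. The identity of a member to its closest other member had a median of 94.2%, it was at least 95% for 60 of the 138, and 12 members shared a stretch of at least 150 bases, the length of a read, with another member. Igkv4-59 was 97.5% identical to Igkv4-70 and Igkv12-46 95.1% to Igkv12-41, whereas Igkv16-104 was at most 73.4% and Igkv19-93 at most 78.6% identical to any other member. How reads were split between near copies is not stated in the methods, so the value of a single member with a close copy is less certain than the sum over its family.

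The libraries were those of lymphoid tissue. The summed FPKM of 18 B cell markers was between 3411 and 4093 in the 10 libraries and that of 15 T cell markers between 526.8 and 857.7. The libraries fell into 2 sets by replicate number, replicates 1 and 2 against replicates 3 to 5 of both groups, which the first principal component separated (36.4% of the variance, and 41.3% when the immunoglobulin genes were left out). Between these sets 488 of the 13334 genes tested differed at an adjusted p below 0.05 (limma, with treatment in the model). The sets were read from these same libraries, so this count describes the split and is no test of it. The labels name no batch, so what the sets stand for is unknown, and results are given below within each set as well. Albumin mRNA, a liver transcript, was at most 0.0486 FPKM in every library of replicates 1 and 2 and between 35.1 and 101.9 FPKM in every library of replicates 3 to 5, and its part in the Igkv values was not tested.

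The summed signal of all Igkv genes was lower on average in the MWA+2DG group, but the groups overlapped. It was 2974, 3416, 9878, 7350 and 8383 FPKM in MWA replicates 1 to 5, and 5546, 2960, 2187, 4911 and 3171 FPKM in MWA+2DG replicates 1 to 5. The means were 6400 ± 3065 (SD, n = 5) and 3755 ± 1412 (SD, n = 5), a ratio of 0.587, or -0.77 on the log2 scale. The 3 highest libraries were all MWA libraries, while MWA replicates 1 and 2 lay within the range of the MWA+2DG libraries. Igkv genes made up between 0.886% and 3.02% of all FPKM in the MWA libraries and between 0.701% and 1.72% in the MWA+2DG libraries.

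Igkc, the constant region joined to every one of these segments, showed the same order of groups. It was 3333, 3314, 10878, 7193 and 8619 FPKM in the MWA libraries and 5643, 3148, 2665, 5531 and 3324 FPKM in the MWA+2DG libraries. On the log2(FPKM + 1) scale the difference was -0.62 (SE 0.36, limma unadjusted P = 0.118, adjusted p = 0.995). A two-sided exact permutation test over the 10 libraries gave p = 0.175, and p = 0.167 when labels were exchanged only within the replicate sets, so no difference in Igkc was shown beyond the spread between libraries. Without MWA replicate 1 the difference was -0.83 with an unadjusted P of 0.0411 (limma). Without MWA replicate 2 it was -0.83 with an unadjusted P of 0.0402 (limma). Both were lowest in Igkc among the MWA libraries, and leaving out each library in turn gave differences between -0.83 and -0.40. The ratio of summed Igkv to Igkc stayed between 0.821 and 1.03 in all 10 libraries, so the V segments and the constant region gave nearly the same picture of kappa mRNA in each node.

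**Figure D1:**
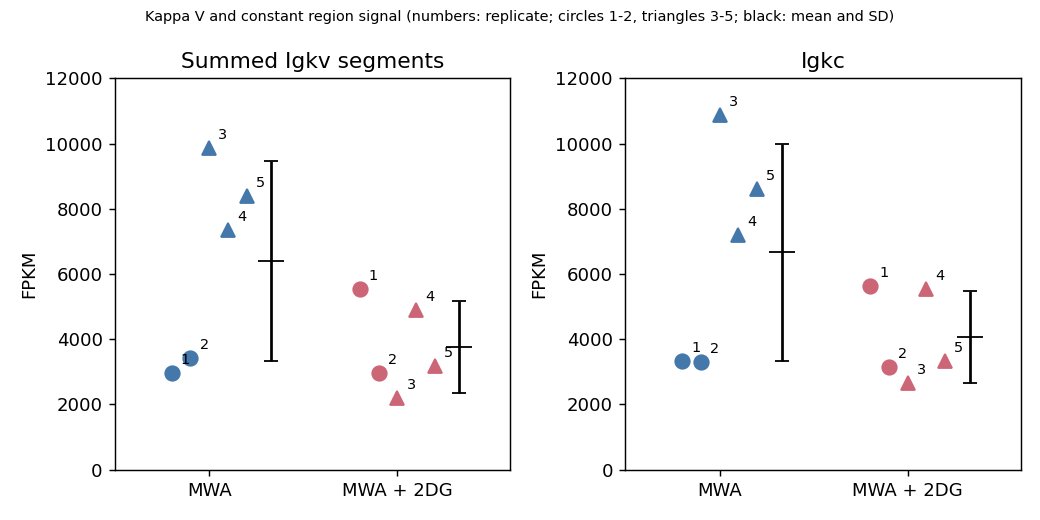
Summed FPKM of all Igkv genes (left) and FPKM of Igkc (right) in each library. Circles are replicates 1 and 2, triangles replicates 3 to 5, and the black bars give the mean and SD of the 5 libraries of a group. MWA replicates 3 to 5 lie above every MWA+2DG library in both panels, and MWA replicates 1 and 2 lie among them.

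Within the replicate sets the totals went in opposite directions. In replicates 1 and 2 the mean summed Igkv signal was 3195 FPKM in the MWA group and 4253 FPKM in the MWA+2DG group, a log2 ratio of 0.41. In replicates 3 to 5 it was 8537 ± 1271 (SD, n = 3) against 3423 ± 1380 (SD, n = 3), a log2 ratio of -1.32, and here the groups did not overlap. The lower mean over all libraries thus came from replicates 3 to 5. For Igkc the difference of these differences, tested as an interaction of set and treatment, was -1.60 (SE 0.47, limma unadjusted P = 0.00769, adjusted p = 1.00).

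Segment by segment, the members leaned to the MWA group. The log2 fold change was negative for 75 of the 96 tested members and positive for 21, and its median was -0.56, against 0.01 over all genes tested. By the rule of the study (limma, unadjusted P below 0.05 and a log2 fold change beyond 0.25), 24 of 96 members, or 25.0%, were lower in MWA+2DG, where 1.87% of all genes tested were lower. None was higher, where 0.952% of all genes tested were. No gene in the table passed an adjusted p of 0.05, and the smallest adjusted p of a member was 0.995, so these calls rest on unadjusted values. The members are parts of one mRNA pool and do not count as independent. The 24 had log2 fold changes between -1.74 and -0.46 and mean levels between 1.91 and 174.6 FPKM, and came from 12 of the 20 families. Without MWA+2DG replicate 3 the count was 14, where 224 of 13347 genes tested were lower. Without MWA replicate 1 it was 33, where 313 of 13351 were. An exact Wilcoxon rank-sum test in place of limma called 12 members lower, and 143 of all 13334 genes. In another fit the Igkv values of each library were divided by its Igkc level and all other genes were left as they were. The median was then -0.02, 3 members were lower and 1, Igkv11-125, was higher. Of all 13334 genes in that fit, 228 were lower and 128 higher.

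**Figure D2:**
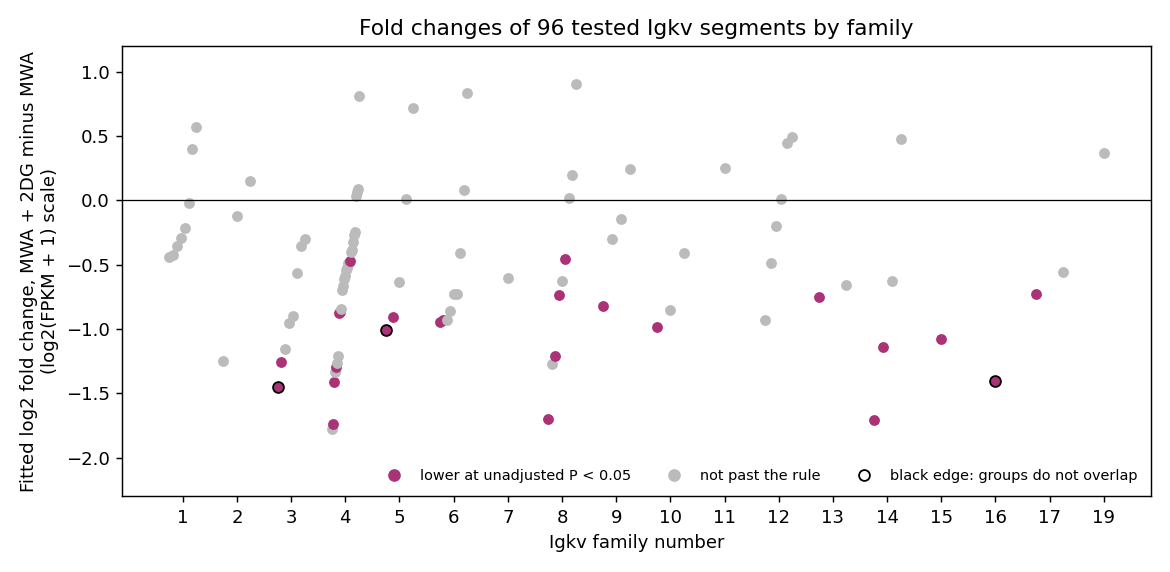
Fitted log2 fold change (MWA+2DG minus MWA, log2(FPKM + 1) scale) of each of the 96 tested members, by family number, ordered by value within a family. Filled purple points are the 24 members lower by the study rule, and black edges mark the 3 members whose groups do not overlap. Most points lie below 0, and no purple point lies above it.

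In 3 of the 96 tested members, or 3.12%, every MWA+2DG library lay below every MWA library, where 0.51% of all genes tested did. No member had every MWA+2DG library above every MWA library, where 0.292% of all genes tested did. The count of 3 became 13 without MWA replicate 1, 7 without MWA replicate 2, and 6 without either of MWA+2DG replicates 1 and 4. The 3 stay separate whichever library is left out, so this count could only hold or rise. Over all genes tested, the count of this direction was 68 with all libraries, and it was 175, 90, 97 and 165 without these libraries in turn. Rescaling each library to a total of 1000000 left 1 such member, and 27 such genes among all tested.

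Igkv5-39, the member of smallest P, was 47.3, 51.6, 90.7, 59.7 and 67.8 FPKM in the MWA libraries and 31.5, 39.8, 22.0, 26.7 and 34.1 FPKM in the MWA+2DG libraries. The highest MWA+2DG library was thus below the lowest MWA library, and the log2 fold change was -1.01 (SE 0.19, limma unadjusted P = 0.000302, adjusted p = 0.995). It is a member of the small family Igkv5, and its closest copy, Igkv5-45, was 90.5% identical.

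Igkv3-1, the V segment nearest to the J segments by its number, was 75.4, 68.2, 131.5, 44.7 and 30.2 FPKM in the MWA libraries and 27.6, 28.9, 22.5, 21.9 and 13.0 FPKM in the MWA+2DG libraries. The groups were close at the edge, with MWA replicate 5 just above MWA+2DG replicate 2, and the log2 fold change was -1.45 (SE 0.35, limma unadjusted P = 0.00168, adjusted p = 0.995). Unlike the summed signal, Igkv3-1 was higher in MWA replicates 1 and 2 than in MWA replicates 4 and 5.

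Igkv16-104, the only member of its family, was 47.4, 66.2, 310.8, 57.7 and 115.9 FPKM in the MWA libraries and 46.8, 29.8, 22.5, 31.7 and 46.2 FPKM in the MWA+2DG libraries. MWA replicate 3 stood far above the others, and MWA replicate 1 and MWA+2DG replicate 1 differed by less than 1 FPKM. The log2 fold change was -1.41 (SE 0.45, limma unadjusted P = 0.0102, adjusted p = 0.995).

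**Figure D3:**
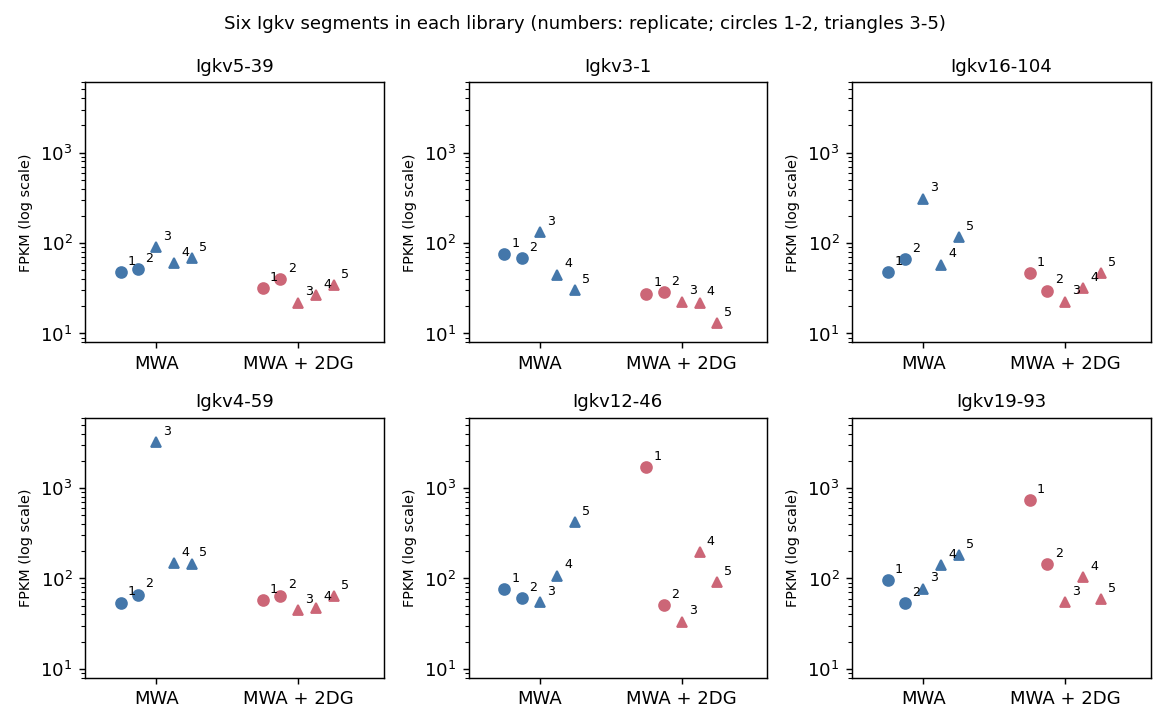
FPKM on a log axis of Igkv5-39, Igkv3-1 and Igkv16-104 (top) and of Igkv4-59, Igkv12-46 and Igkv19-93 (bottom) in each library. Circles are replicates 1 and 2 and triangles replicates 3 to 5. In the top row every MWA+2DG point lies below every MWA point, and in the bottom row 1 library lies far above all others, MWA replicate 3 at 3208 FPKM for Igkv4-59 and MWA+2DG replicate 1 at 1711 FPKM for Igkv12-46 and 742.5 FPKM for Igkv19-93.

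A further 7 of the members described here were lower by the study rule with overlapping groups. Igkv9-120 had means of 49.8 ± 7.60 (SD, n = 5) FPKM in the MWA group and 28.4 ± 8.32 (SD, n = 5) FPKM in the MWA+2DG group, with only MWA+2DG replicate 4 reaching the MWA range. Igkv6-15 was 126.2 ± 45.9 against 62.7 ± 11.6 FPKM (mean ± SD, n = 5 each), and Igkv8-16 was 4.88, 5.90, 14.4, 12.7 and 22.3 FPKM in the MWA libraries against 5.45, 4.17, 2.70, 3.45 and 4.42 FPKM. The log2 fold changes of these 3 were -0.82, -0.93 and -1.21.

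Igkv10-96, one of the most abundant segments, was 198.2, 120.6, 176.5, 199.4 and 509.5 FPKM in the MWA libraries and 88.8, 143.8, 92.4, 115.0 and 102.0 FPKM in the MWA+2DG libraries. Only MWA+2DG replicate 2 exceeded the lowest MWA library, and the log2 fold change was -0.98 (SE 0.32, limma unadjusted P = 0.0102, adjusted p = 0.995). Igkv4-73, an annotated pseudogene at 3.28 ± 0.74 against 2.10 ± 0.59 FPKM (mean ± SD, n = 5 each), was the member of smallest P in the largest family. Its closest copy, Igkv4-79, was 95.5% identical.

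Igkv14-111 and Igkv14-126, the remaining 2, each depended on several single libraries. Igkv14-111 was 67.4, 136.5, 174.4, 347.3 and 373.2 FPKM in the MWA libraries against 104.2, 117.3, 52.4, 55.9 and 108.7 FPKM, with a log2 fold change of -1.14 and an unadjusted limma P of 0.0278 that rose to between 0.0645 and 0.0746 without MWA replicate 4 or 5 or MWA+2DG replicate 3 or 4. Igkv14-126 was 9.44, 123.3, 29.1, 8.83 and 51.4 FPKM against 12.5, 4.44, 6.26, 4.66 and 16.8 FPKM, and without MWA replicate 2, its highest library, its log2 fold change went from -1.71 to -1.18 with an unadjusted limma P of 0.0580. Without MWA replicate 5 or MWA+2DG replicate 2, 3 or 4 it was past 0.05 as well. The other 8 of the 10 members named as lower stayed lower by the rule without any single library. Of the 10, 7 stayed lower with the exact Wilcoxon rank-sum test and 2 with the Igkv values divided by Igkc. In replicates 1 and 2 alone 4 of the 10 were lower, and in replicates 3 to 5 alone 8 were.

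The 5 members with a positive log2 fold change of smallest P did not pass the rule, and all had low levels. Igkv1-133 was 7.45, 6.02, 4.39, 2.44 and 4.29 FPKM in the MWA libraries and 3.98, 6.45, 5.28, 13.7 and 11.3 FPKM in the MWA+2DG libraries, with a log2 fold change of 0.57 (SE 0.32, limma unadjusted P = 0.102, adjusted p = 0.995). Igkv4-81 had a log2 fold change of 0.81, with 18.3 FPKM in MWA+2DG replicate 5 and between 1.47 and 4.88 FPKM in the other 9 libraries. Igkv5-37 and Igkv1-122 had log2 fold changes of 0.72 and 0.40. Igkv8-34 was 44.0 FPKM in MWA+2DG replicate 1 and between 0.118 and 1.26 FPKM in the other 9 libraries, so its positive value was that of 1 library. Igkv1-133 passed the rule as higher without MWA+2DG replicate 1, and Igkv4-81 without MWA+2DG replicate 2.

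By family, the mean summed FPKM was lower in MWA+2DG for 16 of 20 families, and only Igkv16, which is Igkv16-104 alone, had groups that did not overlap. Igkv4, the largest family with 32 members, was 442.8, 534.0, 4446, 1436 and 1186 FPKM in the MWA libraries and 408.6, 418.0, 345.8, 519.7 and 537.0 FPKM in the MWA+2DG libraries. All MWA+2DG libraries lay near MWA replicates 1 and 2, and MWA replicates 3 to 5 lay above all of them. Of its 28 tested members, 6 were lower by the rule, where 1.87% of all genes tested were, and 24 had a negative log2 fold change.

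Igkv3 summed to 939.3 ± 438.3 against 527.5 ± 206.7 FPKM, and 2 of its 8 tested members were lower. Igkv6 summed to 756.6 ± 327.8 against 470.5 ± 242.9 FPKM with 2 of 9 lower, and Igkv8 to 424.8 ± 296.7 against 230.2 ± 60.2 FPKM with 4 of 9 lower (mean ± SD, n = 5 each). Igkv14, with 2 of 4 lower, summed to 285.9 ± 149.3 against 112.2 ± 27.6 FPKM. In Igkv1, with 8 tested members and a summed log2 ratio of -0.48, none was lower by the rule. The share over all genes tested was 1.87%.

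The 4 families with a higher mean in MWA+2DG were Igkv11, Igkv12, Igkv18 and Igkv19. Igkv12 was 222.1, 201.6, 353.2, 574.0 and 1016 FPKM in the MWA libraries and 2037, 177.6, 170.3, 638.4 and 382.9 FPKM in the MWA+2DG libraries. Its higher mean rested on MWA+2DG replicate 1, without which the log2 ratio of the means was -0.47. For Igkv19, which is Igkv19-93 alone, the log2 ratio went from 1.01 to -0.27 without that library. Igkv11 had means of 6.44 and 7.18 FPKM and Igkv18 of 0.829 and 0.907 FPKM, and their groups overlapped. For Igkv18 the log2 ratio went from 0.13 to -0.20 without MWA+2DG replicate 4.

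As shares of the Igkv signal, no family had groups that did not overlap. Igkv3 made up between 11.5% and 18.3% of the signal in the MWA libraries and between 11.2% and 16.9% in the MWA+2DG libraries, and Igkv1 between 7.30% and 12.2% and between 5.72% and 17.7%. Igkv4 made up 14.9%, 15.6%, 45.0%, 19.5% and 14.1% in the MWA libraries and 7.37%, 14.1%, 15.8%, 10.6% and 16.9% in the MWA+2DG libraries. The shares that stood out were those of single libraries, Igkv4 in MWA replicate 3 and Igkv12 at 36.7% in MWA+2DG replicate 1.

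**Figure D4:**
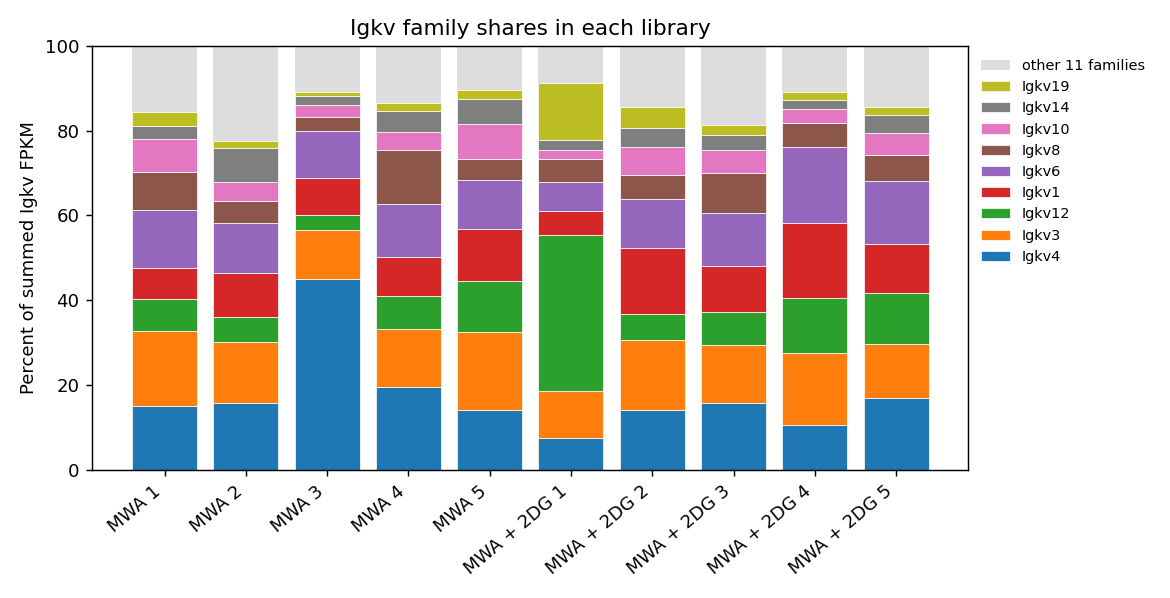
Share of the summed Igkv FPKM taken by each of 9 families, and by the other 11 together, in each library. The Igkv4 share reaches 45.0% in MWA replicate 3 and the Igkv12 share 36.7% in MWA+2DG replicate 1, and in the other 9 libraries these shares are at most 19.5% and 13.0%.

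In these 2 libraries a single segment took more of the signal than all members of its family together did in any other library. Igkv4-59 was 54.0, 66.4, 3208, 149.0 and 146.3 FPKM in the MWA libraries and 57.3, 64.6, 44.9, 47.7 and 63.6 FPKM in the MWA+2DG libraries. In MWA replicate 3 it made up 32.5% of all Igkv FPKM. Without that library its log2 fold change went from -1.78 to -0.76, and its unadjusted limma P from 0.0783 to 0.0305.

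Igkv12-46 was 76.1, 60.7, 54.6, 107.6 and 421.3 FPKM in the MWA libraries and 1711, 50.9, 33.3, 197.6 and 91.9 FPKM in the MWA+2DG libraries, and Igkv19-93 was 95.6, 53.8, 77.2, 139.6 and 182.0 against 742.5, 145.7, 55.1, 103.0 and 59.5 FPKM. Both were highest in MWA+2DG replicate 1, where they made up 30.9% and 13.4% of the Igkv signal. Their CDR3 germline ends, printed above, differ, and Igkv19-93 has no close copy. Without this library the log2 fold changes turned from 0.44 to -0.46 for Igkv12-46 and from 0.37 to -0.26 for Igkv19-93.

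Among the J segments, Igkj2 was 2378 FPKM in MWA replicate 3 and between 397.4 and 1400 FPKM in the other 9 libraries. Igkj4, Igkj5 and Igkc were also highest in MWA replicate 3, at 766.7, 1173 and 10878 FPKM. Igkj3 was highest in MWA replicate 4, at 81.5 FPKM. Igkj1 was 1988 FPKM in MWA+2DG replicate 1 and 1960 FPKM in MWA replicate 5, and between 509.9 and 1408 FPKM in the other 8. Which V segment was joined to which J segment cannot be read from values per gene.

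In the other 8 libraries the highest segment took between 4.35% and 10.9% of the signal. The effective number of segments (the inverse of the summed squared shares, which equals the number of segments if all were equal) was 8.40 in MWA replicate 3 and 8.27 in MWA+2DG replicate 1, and between 26.8 and 49.6 elsewhere. Its group means were 34.3 ± 15.2 (SD, n = 5) and 32.4 ± 15.9 (SD, n = 5). A segment was over 5 times the median of the other 9 libraries in its highest library for 34 of the 96 members. That library was an MWA library for 24 of the 34 and an MWA+2DG library for 10. Of all 96 tested members, the highest library was an MWA library for 68 and an MWA+2DG library for 28. How many of all genes tested went over 5 times was not counted. Some of the 34 were near silent elsewhere, and such a member can pass the filter through its highest library alone. Igkv1-99, named after its values were seen, was 504.1 FPKM in MWA replicate 3 and between 0.945 and 13.4 FPKM in the other libraries.

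With MWA replicate 3 and MWA+2DG replicate 1 both left out, 20 members were lower by the rule, 16 of them among the 24, and the median log2 fold change was -0.57. Of all 13306 genes tested in that fit, 245 were lower. With the highest segment of each library left out, the log2 ratio of the summed signal was -0.78, against -0.77 with all segments. The order of segments by level was alike in all nodes. Spearman's rho over the 96 members was between 0.70 and 0.86 for pairs of MWA libraries, between 0.77 and 0.88 for pairs of MWA+2DG libraries and between 0.72 and 0.89 for pairs across groups, as a description of libraries that share the same genes and lengths. The median segment varied more between libraries of a group than the median gene tested. The median SD on the log2(FPKM + 1) scale was 0.86 over the members in the MWA group and 0.56 in the MWA+2DG group. Over all genes tested it was 0.18 and 0.15. Igkc itself had an SD of 0.80 in the MWA group and 0.50 in the MWA+2DG group, so a spread of this size was not particular to single segments.

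The most abundant segments overall varied in the same way. Igkv1-117 was 64.3, 169.1, 147.8, 328.4 and 633.5 FPKM in the MWA libraries and 103.6, 98.1, 95.2, 537.7 and 187.5 FPKM in the MWA+2DG libraries. Igkv3-4 was 201.0 ± 105.7 against 164.6 ± 100.8 FPKM (mean ± SD, n = 5 each), and Igkv1-135 was between 58.1 and 160.8 FPKM against between 61.8 and 252.2 FPKM. The groups overlapped over most of their range in all 3, and none passed the rule, with log2 fold changes of -0.35, -0.30 and -0.02. Igkv6-32 was 215.5 ± 149.8 against 113.2 ± 98.4 FPKM and Igkv12-44 was 198.7 ± 124.5 against 90.6 ± 40.8 FPKM (mean ± SD, n = 5 each), and neither passed the rule. Igkv12-38, the member of smallest P in family Igkv12, had a log2 fold change of -0.49 and did not pass it either.

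Within the replicate sets, the counts differed as the totals did. In replicates 1 and 2 alone, 8 of the 95 tested members were lower by the rule and 8 were higher, where 2.25% and 2.89% of all genes tested were lower and higher. In replicates 3 to 5 alone, 39 of 96 were lower and 2 were higher, where 2.93% and 1.26% of all genes tested were. The 2 higher members were Igkv1-133 and Igkv4-81. Of the 93 members in both fits, 74 had a lower log2 fold change in replicates 3 to 5 than in replicates 1 and 2, 46 were negative in both sets and 37 were negative in replicates 3 to 5 alone. In a fit with the interaction of set and treatment, 22 of the 96 members had a negative interaction at an unadjusted P below 0.05, where 1.61% of all genes tested did, and no member passed an adjusted p of 0.05 (limma).

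**Figure D5:**
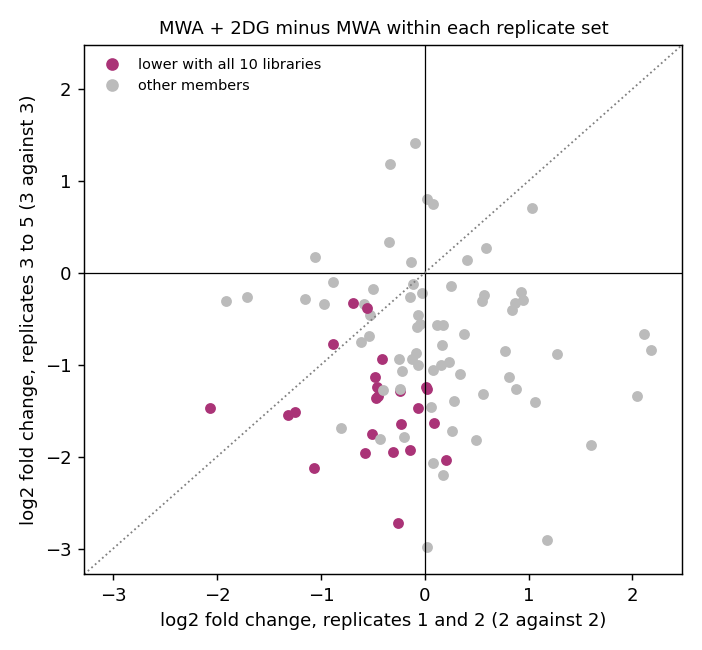
Log2 fold change (MWA+2DG minus MWA) of each of the 93 members tested in both replicate sets, in replicates 1 and 2 (horizontal axis) and in replicates 3 to 5 (vertical axis). Purple points are members lower with all 10 libraries and the dotted line marks equal values. Of the points, 74 lie below the dotted line and 37 lie in the lower right, negative in replicates 3 to 5 only.

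Igkv3-1, Igkv5-39 and Igkv9-120 were lower by the rule in each set on its own, and were the 3 members of which this held. How many of all genes tested were lower in both sets was not counted. Igkv3-1 and Igkv5-39 had groups that did not overlap over all libraries, so their direction in each set was fixed beforehand. For Igkv3-1 the log2 fold change was -1.31 (SE 0.09) in replicates 1 and 2 and -1.55 (SE 0.51) in replicates 3 to 5. For Igkv5-39 it was -0.47 (SE 0.14) and -1.37 (SE 0.21), and for Igkv9-120 -0.89 (SE 0.19) and -0.78 (SE 0.27). Igkv19-93 went from 2.18 (SE 0.81) in replicates 1 and 2 to -0.84 (SE 0.35) in replicates 3 to 5, and Igkv8-16 from -0.14 (SE 0.15) to -1.93 (SE 0.23). The smaller set holds 2 libraries a group.

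Members lower by the rule lay in every stretch of the locus and in both orientations. The second number of the symbol followed the order on the chromosome, and the members were cut by it into 4 stretches of like size. Counted from the J segments outward, 8 of 27, 5 of 26, 7 of 24 and 4 of 19 tested members were lower. The share over all genes tested was 1.87%. The ratio of summed signal was -0.79, -0.89, -0.73 and -0.58 on the log2 scale in these stretches, without a test. The median log2 fold change of their tested members was -0.73, -0.56, -0.56 and -0.29, nearest to 0 in the farthest stretch, also without a test. Of segments that lie opposite to Igkc and must be joined by inversion, 14 of 61 were lower, and of those in the same orientation, joined by deletion, 10 of 35. Their median log2 fold changes were -0.61 and -0.46. Pseudogenes made up between 0.176% and 0.785% of the signal in all libraries.

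The other genes of the kappa locus leaned the same way, and 2 of 6 were lower by the rule. Of all genes tested, 1.87% were lower by it and 0.952% higher. Igkj2 was 1230 ± 726.5 against 554.8 ± 161.2 FPKM, with a log2 fold change of -0.99, and Igkj4 was 484.1 ± 200.9 against 271.3 ± 78.0 FPKM, with a log2 fold change of -0.78 (mean ± SD, n = 5 each). Igkj1, which was highest in MWA+2DG replicate 1, had a log2 fold change of -0.26. Of 10 genes of the lambda light chain locus, none was lower and 1, Iglc4 at 1.22 ± 0.48 against 1.80 ± 0.18 FPKM, was higher by the rule, and their median log2 fold change was -0.28. The 6 genes of V(D)J recombination and the surrogate light chain were below the filter, with a summed level of at most 2.10 FPKM in any library.

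Marker genes of the cells that hold kappa mRNA moved beside it to different degrees. By the rule, 1.87% of all genes tested were lower and 0.952% higher, and no marker passed an adjusted p of 0.05 (limma). Of 11 germinal centre B cell genes, 9 were lower by the rule and none higher, among them S1pr2, a sphingosine-1-phosphate receptor that keeps B cells within the germinal centre, at 12.7 ± 2.09 against 9.09 ± 1.26 FPKM (mean ± SD, n = 5 each), and their summed level was between 211.5 and 347.0 FPKM in the MWA libraries and between 141.5 and 224.0 FPKM in the MWA+2DG libraries. Of 15 tested plasma cell genes, 4 were lower, namely Xbp1, Mzb1, Pou2af1 and Eaf2, and none was higher. Their median log2 fold change was -0.21. The summed level of the list was between 704.3 and 1325 FPKM in the MWA libraries and between 602.2 and 933.0 FPKM in the MWA+2DG libraries. Jchain, the joining chain of secreted IgM and IgA, was 142.2, 153.1, 483.8, 457.2 and 478.6 FPKM in the MWA libraries. In the MWA+2DG libraries it was 312.4, 109.4, 94.0, 264.9 and 105.6 FPKM. Like the summed Igkv signal, Jchain was low in MWA replicates 1 and 2. Its log2 fold change was -0.93, and it did not pass the rule (limma unadjusted P = 0.0767, adjusted p = 0.995).

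Of 18 B cell markers, 2, Pou2af1 and Ighm, were lower, with a median log2 fold change of -0.07 over the list, and their summed level was 3891 ± 153.0 against 3558 ± 118.2 FPKM (mean ± SD, n = 5 each). Of 15 T cell genes, none was lower and 1 was higher by the rule, and their median log2 fold change was 0.16. The shares over all genes tested, 1.87% lower and 0.952% higher, stand beside these counts as well. Pou2af1, the coactivator that acts with octamer factors at immunoglobulin promoters, was 233.4 ± 28.0 against 195.2 ± 13.0 FPKM, while the octamer factors Pou2f1 and Pou2f2 did not pass the rule. The share of these cell types in the Igkv values was not tested. Of 12 tested liver genes none was lower or higher by the rule.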

How the data were processed

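RNA of 10 TDLNs, 5 per group, was sequenced as poly(A) libraries with paired reads. The submitters' processing notes name cutadapt 1.9, HISAT2 2.0.4, UMI-tools, StringTie 1.3.4d and the build mm9, and the study names fastp and ballgown. The authors deposited 1 table of FPKM per gene and library, values already divided by transcript length and mapped reads. Read counts and depth are therefore unknown, and no counting error can be given.

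Symbols matched 33541 of 33643 identifiers, and values of 57 shared symbols were summed. The gene name table holds 160 Igkv symbols, and 22 of them were not analysed here. limma 3.58.1 (R 4.3.3) was run on all 10 libraries without covariates, after the transformation log2(FPKM + 1). Genes under a mean of 1 FPKM were dropped, and Benjamini-Hochberg adjustment covered the remaining 13334. Such fold changes understate those of low genes. The thresholds, P below 0.05 and a log fold change beyond 0.25, and the use of limma follow the methods of the study. The log base, pseudocount and filter were chosen here. The step was tested on simulated data. Sums, shares and medians over members carry no test. P-values measure the spread between libraries, which the labels do not tie to separate cultures or animals.

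The 24 members named with values were those lower or higher with separate groups, the 10 of highest mean, the 5 positive ones of smallest P, and the member of smallest P in each family with at least 4 tested. Values of some single genes of the marker lists are not reported here. The members and gene lists were chosen with earlier results of these data known. Identities came from global alignments (Biopython 1.88) of GENCODE M21 transcripts, whose build is not mm9, so coordinates belong to the printed sequences only. Same-numbered libraries correlated at 0.331, 0.501, 0.110, 0.033 and 0.151 in their deviations from the group means, so the numbers were not taken as pairs. Alternatives were other pseudocounts, filters, scalings and tests, the replicate block, the replicate set as a term and leaving out each library. The replicate sets were taken from these data, not from the labels. The fits within replicate sets, their interaction with treatment, and the fits without the libraries or segments that dominated were added after seeing the data.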

Additional observations from a re-analysis of the deposited data

Results flagged for a closer look

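Of 92 groups of 5 libraries looked at (the total, the highest share, the families and the members named), 21 had a library far from the other 4 of its group, by a gap over range above 0.71. The cut-off gives about 1 in 20 groups for normally distributed values, which FPKM and shares need not follow. Several members were also named for a high mean, which 1 library can set. The 21 are therefore not compared with that rate, and the groups share libraries and reads. The share of the highest segment was 32.5% in MWA replicate 3, where the other 4 MWA libraries were between 4.95% and 7.56%, and 30.9% in MWA+2DG replicate 1, where the other 4 were between 4.35% and 10.9%.

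In MWA replicate 3, Igkv4-59 at 3208 FPKM, Igkv16-104 at 310.8 FPKM and the sum of family Igkv4 at 4446 FPKM stood above the other MWA libraries. So did the low families Igkv18 at 1.15 FPKM and Igkv20 at 2.11 FPKM. In MWA+2DG replicate 1, Igkv12-46 at 1711 FPKM, Igkv19-93 at 742.5 FPKM, Igkv8-34 at 44.0 FPKM and the sum of family Igkv12 at 2037 FPKM stood above the other MWA+2DG libraries, as did the low family Igkv7 at 4.19 FPKM.

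In MWA+2DG replicate 4, Igkv1-117 was 537.7 FPKM, Igkv3-4 was 338.6 FPKM, Igkv6-32 was 285.0 FPKM and family Igkv2 summed to 94.9 FPKM, all above the other libraries of the group. MWA+2DG replicate 2 was highest for Igkv1-135 at 252.2 FPKM and MWA+2DG replicate 5 for Igkv4-81 at 18.3 FPKM. MWA replicate 5 was highest for Igkv10-96 at 509.5 FPKM and for Igkv12-46 at 421.3 FPKM. The only library far below its group was MWA replicate 1 for family Igkv5, at 138.2 FPKM where the other 4 MWA libraries were between 228.2 and 264.2 FPKM.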

How the results depend on the processing

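The direction of the median and of the summed signal held under every pseudocount, filter and scaling, and without any single library. With the Igkv values alone divided by Igkc, the median was -0.024, the summed ratio -0.074, with 3 members lower, 1 higher and 0 separate. An exact Wilcoxon rank-sum test called 12 lower (143 of 13334 genes). Without the filter on low values, 19 were lower and 1 higher (250 and 169 of 32378 genes). Separate members were 1 after rescaling, equal totals outside immunoglobulin genes or quantile normalization (27, 34 and 74 of 13334 genes separate lower). They were 7 without MWA replicate 3 and MWA+2DG replicate 1 (189 of 13306 genes). In replicates 1 and 2, 8 members were lower, 8 higher, 20 separate lower and 12 separate higher (2517 and 2682 of 13404 genes), with a median of -0.068, a summed ratio of 0.41 and Igkc at 0.34. In replicates 3 to 5, 39 were lower, 2 higher, 33 separate lower and 2 separate higher (679 and 523 of 13277 genes), with a median of -0.94 and Igkc at -1.26.

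Leaving out each library gave between 14 and 33 lower, 0 and 1 higher, 3 and 13 separate, and Igkc between -0.83 and -0.40. The count of separate members could only hold or rise in this way. Over all genes tested, leaving out each library gave between 176 and 315 lower, 82 and 222 higher, and 86 and 175 separate lower. It gave -0.79 to 0.057 for Igkv1-117, -0.35 to 0.15 for Igkv1-135, -0.46 to 0.95 for Igkv12-46 and -0.26 to 0.68 for Igkv19-93. Without MWA replicate 3 and MWA+2DG replicate 1 the last 3 were 0.11, -0.68 and -0.35. In replicates 1 and 2 the sign turned for Igkv1-133 (-0.34), Igkv1-135 (1.27), Igkv4-59 (0.021), Igkv4-81 (-0.094), Igkv12-38 (0.23), Igkv12-44 (0.26) and Igkv14-111 (0.20), and in replicates 3 to 5 for Igkv12-46 (-0.67) and Igkv19-93 (-0.84). Divided by Igkc it turned for Igkv1-117 (0.26), Igkv1-135 (0.59), Igkv3-4 (0.31) and Igkv12-38 (0.051). Igkv1-135, at -0.02, was 0.042 after rescaling, 0.054 after quantile normalization and 0.0010 with equal totals outside immunoglobulin genes. The cause was not tested.

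With the replicate block 29 members were lower, where 285 of 13334 genes tested were, and no named call changed. Replicate 2 alone had its own number as best partner. A ratio for family Igkv20 was not given where its MWA+2DG sum was 0. Depth is unknown, so the precision of low members could not be set, and single members with near copies are less certain than their family.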

Other observations

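For 34 members the highest library was over 5 times the median of the other 9, which was not counted over all genes tested. It was an MWA library for 24 of these members and an MWA+2DG library for 10. Over all 96 tested members it was an MWA library for 68 and an MWA+2DG library for 28. Several of the 34 that were not described above are given here, and were named after their values were seen. Igkv4-54 was 64.4 FPKM in MWA replicate 3, where the median of the other 9 libraries was 1.47 FPKM. Igkv6-13 was 300.6 FPKM in MWA+2DG replicate 4, where that median was 7.43 FPKM, and Igkv8-28 was 278.9 FPKM in MWA replicate 4, where it was 10.3 FPKM.

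Igkv3-3 was 49.7 FPKM in MWA replicate 1 and Igkv4-51 was 43.1 FPKM in MWA replicate 2, with medians of 2.24 and 2.88 FPKM elsewhere. Igkv4-53 and Igkv4-90 were highest in MWA replicate 3, at 420.5 and 60.3 FPKM against medians of 25.6 and 3.95 FPKM. Igkv12-89 was high in more than 1 library, at 119.7 FPKM in MWA+2DG replicate 1 and 84.4 FPKM in MWA replicate 5, and was at most 10.7 FPKM in the other 8.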
